A study of Mus musculus with 6 samples.

Results

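Notch pathway RNA was followed in immune cells of mouse livers through 7 genes, Hes1, Notch1, Notch2, Notch3, Dtx1, Rbpj and Heyl, of the 32286 genes counted. The genes were chosen by their UMI values in these same libraries, Hes1 above all, in T-like cells marked by Dntt and Arpp21 and in CD8 T cells, so their levels in those cells are given as a description. Droplet single-cell libraries of messenger RNA with antibody tags were made 30 days after infection from 3 groups of livers. The AAV-sgBaat group had received an adeno-associated virus with a guide RNA against Baat, the hepatocyte enzyme that conjugates bile acids. The AAV-sgSCR group had received the virus with a control guide, and the mock group was mock infected. Each group is 1 library made from a pool of 3 tumor samples, and there are no replicates to test against. For the mock library, one label speaks of native liver and the design text of tumor-bearing liver. T cells (CD45hi CD3+) and the remaining CD45hi cells were sorted and run together. Mouse strain and age are not given in the sources used here.

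Notch receptors are cut at the membrane when a ligand on a neighbouring cell pulls on them, and the freed intracellular part enters the nucleus. There it joins the DNA-binding protein RBPJ and a Mastermind-like coactivator and switches on genes such as Hes1. In the thymus, Notch1 signalling commits progenitors to the T cell lineage, and its target Ptcra encodes the pre-T cell receptor alpha chain. Notch2 is the receptor known from marginal zone B cells and from monocyte and dendritic cell subsets.

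RBPJ recognises a core of TGGGAA, read as TTCCCA on the other strand. RefSeq promoter windows (GRCm38.p6) were available for 5 of the 7 genes, and the 250 bases before the start were searched on both strands. Of these 5 genes, Rbpj alone held the core, while Notch1, Notch2, Notch3 and Dtx1 had no match in their windows. The core occurs in 21.6% of all windows of this length, and the longer form GTGGGAA, which contains it, in 5.42%. The windows of 4 genes are shown, 5′ to 3′ along the gene, with core matches in capitals. Notch1 is shown as a member higher, and Rbpj as a member lower, in Dntt/Arpp21 than in CD8 T cells of both libraries. Ptcra, higher there, and Lfng, lower there, are other pathway genes, and both hold matches.
Notch1, chr2:26503823-26504072, minus strand: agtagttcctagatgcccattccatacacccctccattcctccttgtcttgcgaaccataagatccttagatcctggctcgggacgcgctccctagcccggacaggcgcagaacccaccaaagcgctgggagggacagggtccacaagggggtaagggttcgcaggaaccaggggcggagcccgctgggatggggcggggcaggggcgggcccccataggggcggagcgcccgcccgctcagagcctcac
Rbpj, chr5:53590096-53590345, plus strand, before a start inside the annotated gene: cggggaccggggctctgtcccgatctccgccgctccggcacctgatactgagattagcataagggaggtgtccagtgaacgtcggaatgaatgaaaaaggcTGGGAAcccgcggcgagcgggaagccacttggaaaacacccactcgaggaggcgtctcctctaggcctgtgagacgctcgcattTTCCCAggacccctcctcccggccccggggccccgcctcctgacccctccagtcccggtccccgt
Ptcra, chr17:46763713-46763962, minus strand: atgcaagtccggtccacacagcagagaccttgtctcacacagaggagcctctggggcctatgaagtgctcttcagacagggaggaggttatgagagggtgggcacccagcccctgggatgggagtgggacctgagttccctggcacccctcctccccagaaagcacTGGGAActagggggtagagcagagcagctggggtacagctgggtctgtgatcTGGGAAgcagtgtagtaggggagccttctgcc
Lfng, chr5:140607091-140607340, plus strand: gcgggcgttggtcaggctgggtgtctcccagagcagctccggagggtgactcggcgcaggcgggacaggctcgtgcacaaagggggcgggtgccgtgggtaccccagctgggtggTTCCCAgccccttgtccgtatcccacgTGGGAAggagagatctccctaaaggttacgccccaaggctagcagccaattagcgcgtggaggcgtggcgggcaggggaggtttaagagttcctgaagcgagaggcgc
The Ptcra matches begin 84 and 32 bases before the start and those of Lfng 135 and 108 bases before it, the second of which is the longer form. A match is a description of these letters and not a binding site.

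The libraries held 9386 (AAV-sgBaat), 8073 (AAV-sgSCR) and 6431 (mock) barcodes, with 48359443, 62570529 and 32005400 gene UMIs (unique molecular identifiers, 1 per captured RNA molecule). Barcodes with at least 500 genes, 1000 gene UMIs and at most 10% mitochondrial UMIs numbered 7094, 7332 and 6068. Barcodes that paired RNA of different lineages were 29.3% of these in AAV-sgBaat, 18.1% in AAV-sgSCR and 5.87% in mock, and were set aside. Whether they are mixtures of cells was not tested. Cell classes were taken from marker UMIs, which placed 3606, 5199 and 4812 barcodes. Baat itself was counted 1 time in AAV-sgBaat, 16 times in AAV-sgSCR and 7 times in mock, in cells sorted as immune, and these counts do not check editing. Pairs of libraries shared 10 to 16 barcodes, of which 4 to 9 lay in the named classes. Levels are UMIs of a gene as CPM, counts per 1000000 gene UMIs of the class, with exact 95% Poisson intervals in brackets, which cover counting error only. CPM is not divided by transcript length, so levels are compared within a gene.

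The Dntt/Arpp21 T-like class numbered 852 cells in AAV-sgBaat, 88 in AAV-sgSCR and 4 in mock, with median depths of 9037, 13588 and 5148.5 UMIs. Cells entered it with at least 2 UMIs of the CD3 genes and at least 2 of Dntt, which adds bases at receptor joints, or Arpp21, a gene of immature lymphocytes. They carried Cd3e at 410 CPM in AAV-sgBaat against 500.3 in AAV-sgSCR. The recombinase gene Rag1 stood at 94.9 and 119.0 CPM and Ptcra at 77.3 and 77.8, while Cd4 stood at 4.49 and 3.05. Ighm, the IgM heavy chain, was also present at 310 CPM in AAV-sgBaat against 313 in AAV-sgSCR, whereas Cd79a, a B cell receptor component, had 25 and 0 UMIs. UMIs of the proliferation genes Mki67 or Top2a were found in 76.9% of these cells in AAV-sgBaat and 73.9% in AAV-sgSCR. The CD90.1 surface tag had a median of 3027.5 UMIs per cell in AAV-sgBaat against 3862 in AAV-sgSCR, against 19.5 in the 4 mock cells. The mock cells had no UMI of any of the 7 genes and are left out from here on.

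Among the receptors, Notch1, the main receptor of T cell development, was at 264 CPM [253 to 275] in Dntt/Arpp21 cells of AAV-sgBaat and 304 [275 to 336] in those of AAV-sgSCR. In CD8 T cells it was at 47.5 CPM [39.3 to 56.8] in AAV-sgBaat, 41.4 [37.4 to 45.6] in AAV-sgSCR and 45.8 [38.9 to 53.6] in mock. Notch1 was thus 5.55-fold higher in Dntt/Arpp21 cells than in CD8 T cells of AAV-sgBaat and 7.36-fold higher in AAV-sgSCR, and the CD8 intervals of the 3 libraries overlapped. Notch3, which is active in thymocytes before they carry a complete receptor, had 147 UMIs in Dntt/Arpp21 cells of AAV-sgBaat (16.9 CPM) and 23 in those of AAV-sgSCR (17.5 CPM). CD8 T cells held 0 Notch3 UMIs in AAV-sgBaat, 2 in AAV-sgSCR and 0 in mock. The AAV-sgBaat ratio was at least 14.2-fold, with 3 counts put in place of the class sum of 0. In AAV-sgSCR it was 86.1-fold, with a log2 interval of 4.41 to 9.56. Notch2 ran the other way, at 7.49 CPM in Dntt/Arpp21 cells against 11.6 in CD8 T cells of AAV-sgBaat, with intervals that overlapped. In AAV-sgSCR it was at 3.81 CPM on 5 UMIs in Dntt/Arpp21 cells, against 10.5 CPM in CD8 T cells.

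Rbpj, the transcription factor on which all 4 Notch receptors converge, was lower in Dntt/Arpp21 cells than in all CD8 T cells of the same library. It stood at 44.8 CPM [40.5 to 49.5] in Dntt/Arpp21 cells against 90.5 [79.1 to 103] in CD8 T cells of AAV-sgBaat, and at 47.3 [36.2 to 60.6] against 123 [116 to 130] in AAV-sgSCR. The log2 ratios were -1.01 and -1.37. CD8 T cells of mock had Rbpj at 42.3 CPM [35.6 to 49.8], near the Dntt/Arpp21 levels. So did the CD8 T cells of AAV-sgBaat with CD90.2 as the dominant tag, a split described below, at 42.6 [32.9 to 54.3]. Those of AAV-sgSCR had 62.9 [55.1 to 71.4], and CD90.1-dominant cells had 166 in AAV-sgBaat and 161 in AAV-sgSCR. The ratio thus depended on which CD8 T cells were compared.

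Of the targets, Hes1, a repressor that Notch induces directly, was in Dntt/Arpp21 cells of AAV-sgBaat at 399 CPM [386 to 413] on 3465 UMIs. In AAV-sgSCR it was at 298 CPM [269 to 329] on 391 UMIs. CD8 T cells held 43 Hes1 UMIs in AAV-sgBaat (17.1 CPM [12.4 to 23.1]), 26 in AAV-sgSCR (2.65 [1.73 to 3.88]) and 20 in mock (5.91 [3.61 to 9.13]). The Dntt/Arpp21 level was 23.3-fold the CD8 level within AAV-sgBaat and 112.6-fold within AAV-sgSCR. With mixed-lineage barcodes kept, the log2 ratios of 4.54 and 6.81 became 3.19 and 4.24. Heyl, a second repressor of the Hes and Hey family, followed at low level, with 40 UMIs in Dntt/Arpp21 cells against 1 in CD8 T cells of AAV-sgBaat, a log2 ratio of 3.53 with an interval of 0.97 to 8.87. In AAV-sgSCR it had 7 against 6 UMIs, which is 5.34 against 0.611 CPM. Dtx1, the Deltex ubiquitin ligase that is both a Notch target and a regulator of the receptor, was at 64.3 CPM in Dntt/Arpp21 cells against 37.5 in CD8 T cells of AAV-sgBaat. In AAV-sgSCR it was at 85.4 against 14.6 CPM, a 5.86-fold difference.

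**Figure D1:**
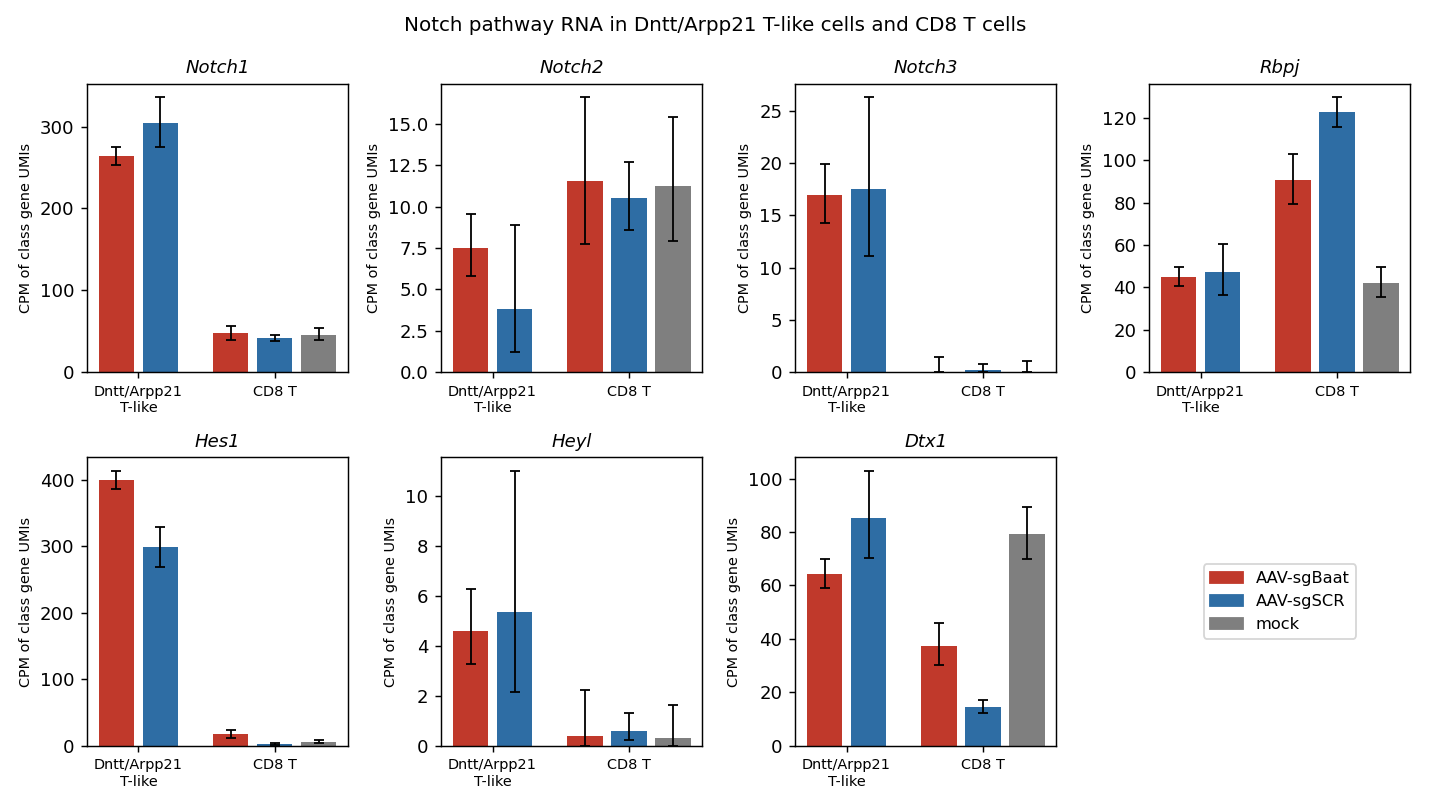
Level of each member in CPM of the class's gene UMIs, for Dntt/Arpp21 T-like cells (AAV-sgBaat, AAV-sgSCR) and CD8 T cells (AAV-sgBaat, AAV-sgSCR, mock); bars are 1 library each and lines are exact 95% Poisson intervals. Notch1, Notch3, Hes1 and Heyl are higher in the Dntt/Arpp21 cells of both libraries, and Rbpj is lower there than in CD8 T cells of the same library.

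A gene was counted as higher or lower when its ratio was at least 2-fold on at least 20 UMIs in the class with the higher level. In AAV-sgBaat all 7 members could be counted, and 4 were higher in Dntt/Arpp21 cells (Hes1, Notch1, Notch3 and Heyl) and 1 lower (Rbpj). Over all 9728 genes tested in that pair, 22.4% were higher and 14.8% lower. In AAV-sgSCR 6 members were counted, with 4 higher (Hes1, Notch1, Notch3 and Dtx1) and 2 lower (Notch2 and Rbpj), where 14.9% of 9373 genes were higher and 24.6% lower. Since the members were listed with these values known, nothing is read from these counts.

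The other 54 genes of the pathway, from a list of ligands, processing enzymes, cofactors, turnover genes and targets, were listed by role. In AAV-sgBaat 36 of them could be counted, and 6 were higher in Dntt/Arpp21 cells and 5 lower, with a median log2 ratio of 0.01 against 0.27 over all genes. In AAV-sgSCR 39 were counted, with 6 higher and 7 lower and a median of -0.21 against -0.17. In AAV-sgBaat 16.7% of those counted were higher and 13.9% lower, against 22.4% and 14.8% of all genes. The AAV-sgSCR shares were 15.4% and 17.9%, against 14.9% and 24.6%. These shares are near or below those of all genes, so nothing is read from the counts. The same 6 genes were higher in both libraries, namely Ptcra, Egfl7, Ccnd1, Maml3, Mib1 and Gata3. Ptcra was at 77.3 CPM against 1.59 in AAV-sgBaat (48.5-fold) and 77.8 against 0.713 in AAV-sgSCR (109-fold). Ccnd1, the cyclin that carries cells out of the resting phase, was at 37.0 against 3.59 CPM in AAV-sgBaat against 43.5 against 1.94 in AAV-sgSCR. Maml3, a Mastermind-like coactivator, was at 27.1 against 3.19 CPM in AAV-sgBaat against 26.7 against 4.18 in AAV-sgSCR. Egfl7, a secreted protein that binds Notch receptors, was 12.4-fold higher in AAV-sgBaat and 20.7-fold in AAV-sgSCR. Mib1, the ligase that prepares ligands for signalling, was 2.21-fold and 2.24-fold higher, and Gata3, a T lineage transcription factor, lay at the threshold in both.

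Another 4 pathway genes were lower in Dntt/Arpp21 cells of both libraries. Lfng, a fringe enzyme that adds sugars to Notch and sets which ligands it answers to, was at 4.03 CPM against 52.2 in AAV-sgBaat and 6.10 against 52.5 in AAV-sgSCR. Neurl3, a relative of the ligand-directed ligase Neuralized, was at 6.22 CPM against 65.8 in AAV-sgBaat and 7.63 against 117.2 in AAV-sgSCR. Psen2, a catalytic subunit of gamma-secretase, was 6.84-fold and 6.25-fold lower. Maml2, a sister of Maml3, had 16 against 31 UMIs in AAV-sgBaat against 0 against 201 in AAV-sgSCR, where it was at least 8.95-fold lower. Numb, an inhibitor of Notch, passed the threshold in AAV-sgBaat alone, and Furin, Numbl and the feedback inhibitor Nrarp in AAV-sgSCR alone, with no test of the difference. Nrarp had 0 UMIs in Dntt/Arpp21 cells of AAV-sgSCR, against 59 in its CD8 T cells.

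**Figure D2:**
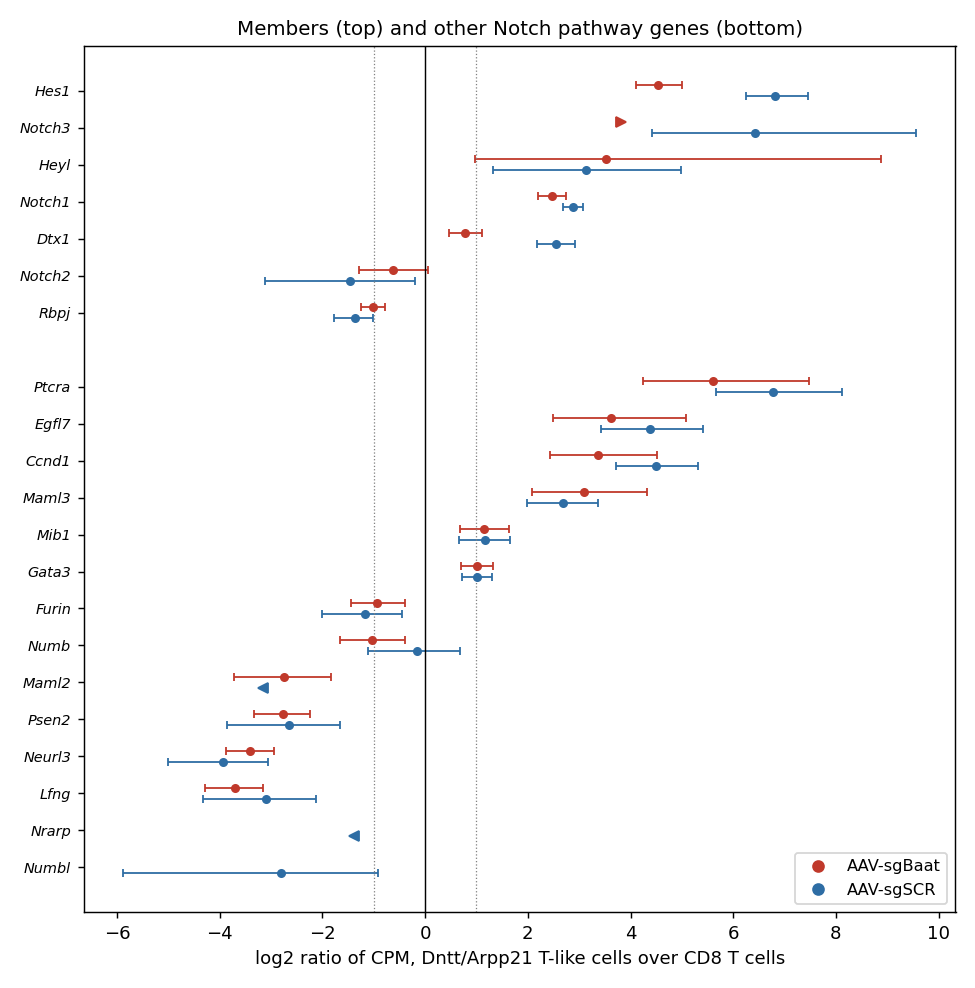
log2 ratio of CPM in Dntt/Arpp21 T-like cells over CD8 T cells within AAV-sgBaat (red) and within AAV-sgSCR (blue), for the 7 members and for other pathway genes at least 2-fold apart in either library; lines are exact 95% intervals for counting error, triangles are bounds from a sum of 0, and dotted lines mark 2-fold. Hes1 and Ptcra lie far to the right in both libraries, and Rbpj, Lfng, Neurl3, Psen2 and Maml2 to the left.

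Dntt/Arpp21 cells were also compared between the libraries. None of the 6 members and 0 of the 26 other pathway genes counted were 2-fold apart. Over all 8217 genes tested, 4.28% were at least 2-fold higher in AAV-sgBaat and 0.365% lower. With shares this low, nothing is read from these counts. The log2 ratio of AAV-sgBaat over AAV-sgSCR was 0.42 [0.27 to 0.58] for Hes1, -0.21 [-0.36 to -0.05] for Notch1 and -0.41 [-0.71 to -0.10] for Dtx1, while the intervals of Notch3, Rbpj, Notch2 and Heyl included 0. The Hes1 value depended on how cells were weighted. It was 0.05 as a mean over cells, and -0.14 in a single random thinning of each cell to 1000 UMIs, which left 38 Hes1 UMIs in AAV-sgSCR. In AAV-sgSCR, 7 cells under 5000 UMIs carried 33 of the 391 Hes1 UMIs.

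Hes1 was spread unevenly over single cells. Among Dntt/Arpp21 cells of at least 5000 UMIs, 16.5% of 587 in AAV-sgBaat and 29.6% of 81 in AAV-sgSCR had no Hes1 UMI, the median was 3 in both, and the highest cells held 42 and 24. The tenth of cells with most Hes1 held 37.1% of its UMIs in AAV-sgBaat against 42.5% in AAV-sgSCR. For Notch1, 9.54% of these cells in AAV-sgBaat and 4.94% in AAV-sgSCR had no UMI, and the highest held 19 and 16. The variance over the mean was 7.46 and 6.29 for Hes1 against 2.66 and 2.39 for Notch1. Cells of these classes differ in depth, which adds to both values.

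**Figure D3:**
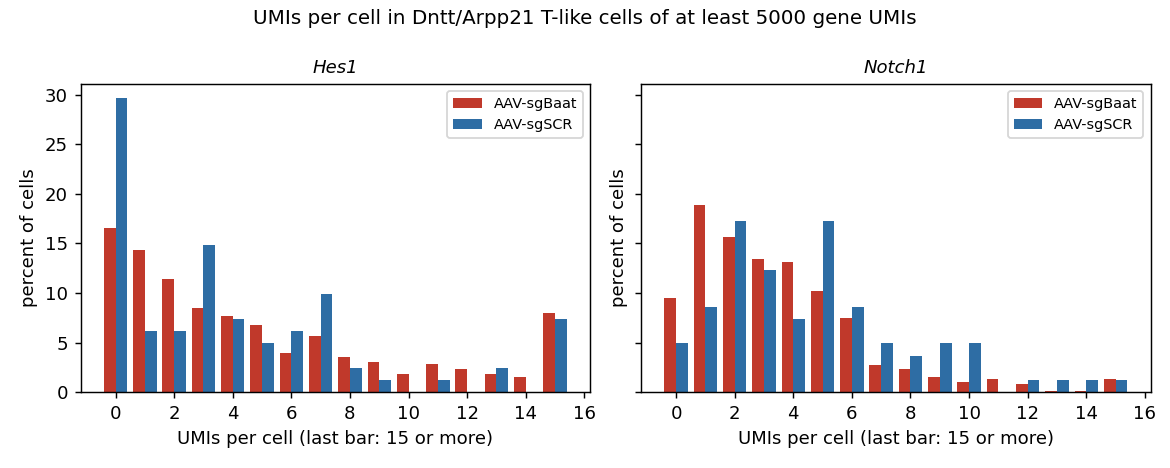
Percent of Dntt/Arpp21 T-like cells of at least 5000 gene UMIs (587 in AAV-sgBaat, 81 in AAV-sgSCR) by the number of Hes1 UMIs (left) and Notch1 UMIs (right) per cell; the last bar holds 15 or more. Hes1 has both more cells at 0 and a longer upper tail than Notch1.

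In AAV-sgBaat, Dntt/Arpp21 cells without a UMI of Cd8a or Cd8b1 had Hes1 at 490 CPM [463 to 518], against 362 [347 to 377] in those with one. The same order, 375 against 284 CPM, was seen in AAV-sgSCR, where the intervals overlapped on 19 and 69 cells. Notch1 was at 250 and 269 CPM across this split in AAV-sgBaat. Cells with a Rag1 UMI had Notch1 at 308 CPM, against 226 in those without one in AAV-sgBaat, and their Hes1 was at 380 against 415. Cells with a UMI of Mki67 or Top2a had Hes1 at 396 CPM, against 422 without one, and 291 against 344 in AAV-sgSCR, with overlapping intervals in both libraries. With a Ptcra UMI, Hes1 was at 437 CPM against 369 without one in AAV-sgBaat. In AAV-sgSCR the order was reversed, at 267 against 333, with overlapping intervals. Cells without the splitting UMI were shallower. Their median depths in AAV-sgBaat were 5258 (Cd8a or Cd8b1), 8259 (Rag1), 3925 (Mki67 or Top2a) and 7223.5 UMIs (Ptcra). Cells with it had 10483, 10640, 11012 and 12731. The part of depth was not tested. At the edge of the class in AAV-sgBaat, the 135 cells with exactly 2 Dntt or Arpp21 UMIs had Hes1 at 404 CPM, and the 251 T cells with exactly 1, which were kept out, had 275. The 33 such T cells of AAV-sgSCR had 4.71 CPM on 1 UMI.

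In CD8 T cells the members did not move together between libraries. Against AAV-sgSCR, 2 of the 5 members counted were at least 2-fold higher in AAV-sgBaat, Hes1 and Dtx1, and none lower, where 0.823% of 9722 genes were higher and 5.75% lower. The Hes1 difference was 6.47-fold and the Dtx1 difference 2.57-fold, at 37.5 CPM [30.3 to 45.9] in AAV-sgBaat against 14.6 [12.3 to 17.2] in AAV-sgSCR. Against mock, Hes1 was 2.90-fold and Rbpj 2.14-fold higher in AAV-sgBaat, and Dtx1, at 79.2 CPM in mock, was 2.11-fold lower, where 5.73% of 8475 genes were higher and 4.79% lower. In AAV-sgSCR against mock, Rbpj was 2.90-fold higher, Dtx1 5.44-fold lower and Hes1 2.23-fold lower, where 12.8% of 10131 genes were higher and 3.76% lower. These 3 comparisons share libraries. Of the other pathway genes, 0 of 38 counted were higher and 4 were lower in AAV-sgBaat over AAV-sgSCR, namely Pofut1, Numbl, Dtx4 and Il2ra, with a median log2 ratio of -0.18 against -0.10 over all genes.

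UMIs of the genes that mark Dntt/Arpp21 cells were also counted in other classes. Neutrophils, which make neither Dntt nor Rag1, held 31 Hes1 UMIs in AAV-sgBaat (14.0 CPM [9.53 to 19.9]) and 10 in AAV-sgSCR (1.95 [0.933 to 3.58]), close to the CD8 levels of the same libraries. The same neutrophils held Dntt and Arpp21 together at 27.2 CPM in AAV-sgBaat against 1.95 in AAV-sgSCR. Neutrophil Hes1 per UMI of Dntt and Arpp21 was 0.517 [0.324 to 0.810] in AAV-sgBaat, an interval that holds the 0.471 of its Dntt/Arpp21 cells. In AAV-sgSCR it was 1 [0.374 to 2.68] on 10 Hes1 UMIs, an interval above the 0.310 of its Dntt/Arpp21 cells. Other AAV-sgBaat classes lay above, around or below the 0.471 of that library. Hes1 per such UMI was 4 [2.39 to 7.01] in classical monocytes and 3 [1.70 to 5.54] in natural killer and type 1 innate lymphoid cells. It was 0.381 [0.228 to 0.618] in basophils and mast cells and 0.309 [0.189 to 0.488] in granulocyte precursors. Both of these intervals hold 0.471. Precursor B cells, at 0.211 [0.157 to 0.279], and plasmacytoid dendritic cells, at 0.199 [0.132 to 0.292], lay below it. With every cell thinned to 1000 UMIs and averaged over all draws, a Hes1 UMI was found in 2.27% of CD8 T cells and 2.84% of neutrophils of AAV-sgBaat (6.34% and 5.17% unthinned), at median depths of 4005 and 3701 UMIs. The AAV-sgSCR shares were 0.251% and 0.215% (1.06% and 0.900% unthinned), at 5080 and 4755 UMIs. In AAV-sgBaat the CD8 share was thus below that of neutrophils when thinned and above it unthinned. The intervals of a single thinned draw, 1.13% to 3.77% in CD8 T cells and 1.53% to 4.63% in neutrophils, overlapped, so no order is read from the thinned shares. The CD8 gate admits no Dntt or Arpp21 UMI, but Rag1, Rag2 and Ptcra together were at 3.59 CPM on 9 UMIs in CD8 T cells and at 9.96 CPM on 22 UMIs in neutrophils of AAV-sgBaat. Per 100 UMIs of these 3 genes, Hes1 had 478 UMIs in CD8 T cells, 212 in Dntt/Arpp21 cells and 141 in neutrophils of AAV-sgBaat, and 217 in CD8 T cells, 134 in Dntt/Arpp21 cells and 200 in neutrophils of AAV-sgSCR. The AAV-sgSCR values of CD8 T cells and neutrophils rest on 12 and 5 UMIs of these 3 genes. No order is read from values on so few UMIs. How far RNA from other cells contributed to the CD8 Hes1 level was not tested. Dtx1 was at 4.98 CPM in AAV-sgBaat neutrophils and 0.389 in those of AAV-sgSCR, below the CD8 levels of both.

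The CD8 T cells of the libraries were of unlike makeup, which was examined by splitting them by the dominant CD90 tag after the values had been seen. CD90.1-dominant cells were 38.6% of CD8 T cells in AAV-sgBaat and 61.4% in AAV-sgSCR, and mock had 12 such cells. Rbpj followed the tag, at 166 CPM [141 to 194] in CD90.1-dominant against 42.6 [32.9 to 54.3] in CD90.2-dominant cells of AAV-sgBaat, and 161 [151 to 171] against 62.9 [55.1 to 71.4] in AAV-sgSCR. Mock CD90.2-dominant cells had Rbpj at 40.9 CPM. Within the CD90.1-dominant cells Rbpj differed between AAV-sgBaat and AAV-sgSCR by a log2 ratio of 0.05 [-0.21 to 0.29].

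Dtx1 ran opposite to Rbpj, at 17.2 CPM in CD90.1-dominant against 51.1 in CD90.2-dominant cells of AAV-sgBaat and 2.35 against 34.7 in AAV-sgSCR. Mock CD90.2-dominant cells had 80.3 CPM. The higher Dtx1 of AAV-sgBaat over AAV-sgSCR was 1.47-fold in CD90.2-dominant cells, below the 2-fold mark. In CD90.1-dominant cells it was 7.30-fold on 16 against 14 UMIs. Hes1 was 5.65-fold higher in CD90.1-dominant cells of AAV-sgBaat than of AAV-sgSCR, on 23 against 26 UMIs. CD90.2-dominant cells of AAV-sgBaat held 18 Hes1 UMIs (11.8 CPM [6.99 to 18.6]) in 324 cells, against 0 UMIs in 637 cells of AAV-sgSCR. Those of mock held 20 (6.15 CPM [3.76 to 9.50]) in 493 cells, of which 9 had a Hes1 UMI. Notch1 lay between 41.3 and 47.8 CPM in all 5 groups.

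**Figure D4:**
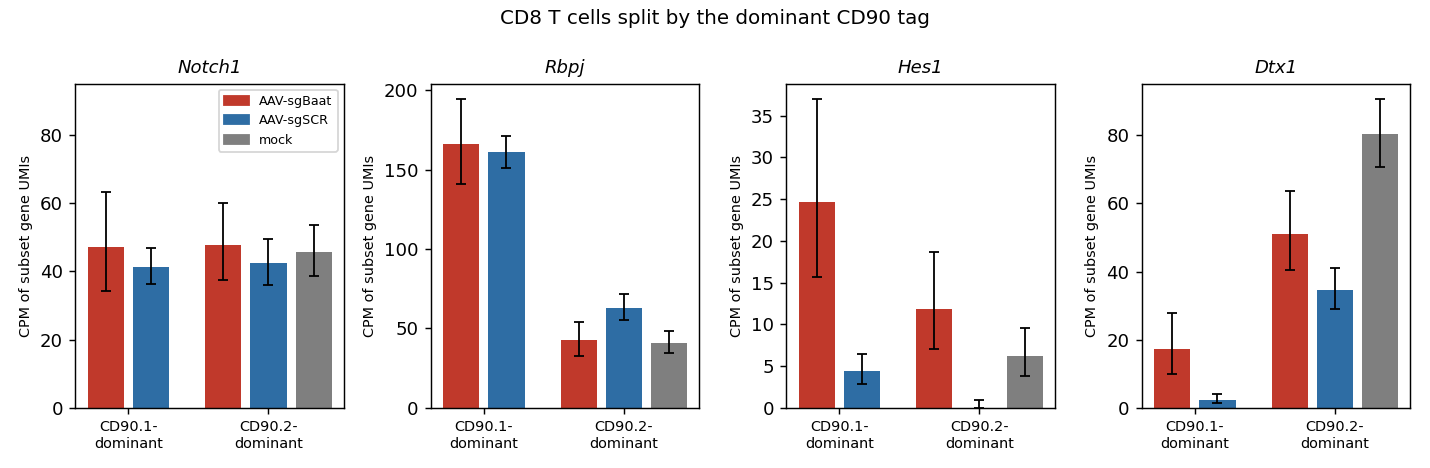
Notch1, Rbpj, Hes1 and Dtx1 in CD8 T cells split by the dominant CD90 tag, in CPM of the subset's gene UMIs, for AAV-sgBaat, AAV-sgSCR and, in CD90.2-dominant cells, mock; lines are exact 95% Poisson intervals. Rbpj is high in CD90.1-dominant and Dtx1 in CD90.2-dominant cells, and Notch1 is level.

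Among CD90.2-dominant CD8 T cells with a UMI of a naive gene and none of the effector chemokine Ccl5, Rbpj was at 12.03 CPM in AAV-sgBaat, 15.5 in AAV-sgSCR and 27.9 in mock, and Dtx1 at 32.1, 46.5 and 95.1. These are 51, 51 and 234 cells, and the AAV-sgBaat and AAV-sgSCR values rest on 3 to 15 UMIs. CD90.2-dominant cells with Ccl5 had Rbpj at 49.0, 67.2 and 50.8 CPM and Dtx1 at 55.5, 32.8 and 69.1, in AAV-sgBaat, AAV-sgSCR and mock.

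Across the other lineages each member had its own order of levels. After the Dntt/Arpp21 cells, Hes1 was highest in patrolling monocytes of AAV-sgBaat, at 188 CPM [156 to 224] against 79.6 [63.7 to 98.4] in AAV-sgSCR, and in precursor B cells of both libraries, at 122 [92.95 to 156] and 129 [108 to 154], intervals that overlap. Macrophages had 94.5 CPM in AAV-sgBaat against 54.1 in AAV-sgSCR, and classical monocytes 63.6 and 21.1. In natural killer cells and type 1 innate lymphoid cells, Hes1 was at 65.7 CPM [48.9 to 86.4] in AAV-sgBaat, 43.5 [33.0 to 56.4] in AAV-sgSCR and 140 [125 to 156] in mock. The mock level lay with cells holding a UMI of the Ly49 (Klra) receptors, at 169 CPM, against 49.3 in those without one. In AAV-sgBaat these were 85.1 [57.8 to 121] against 48.6 CPM [29.7 to 75.1], which overlap. In AAV-sgSCR they were 64.1 [44.6 to 89.1] against 28.8 CPM [18.1 to 43.6], which do not. Those AAV-sgSCR UMIs lay in 18 and 10 cells, and the intervals of the shares of cells holding one, 14.5% and 6.71%, overlapped. The CPM intervals treat UMIs of the same cell as independent, so no difference is read in AAV-sgSCR. Hes1 in AAV-sgBaat exceeded AAV-sgSCR in 10 of 11 classes compared, with 9 intervals above 0, the neutrophils among them. The Dntt and Arpp21 UMIs in neutrophils, at 27.2 CPM in AAV-sgBaat against 1.95 in AAV-sgSCR, move with this pattern, and their part in it was not tested.

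**Figure D5:**
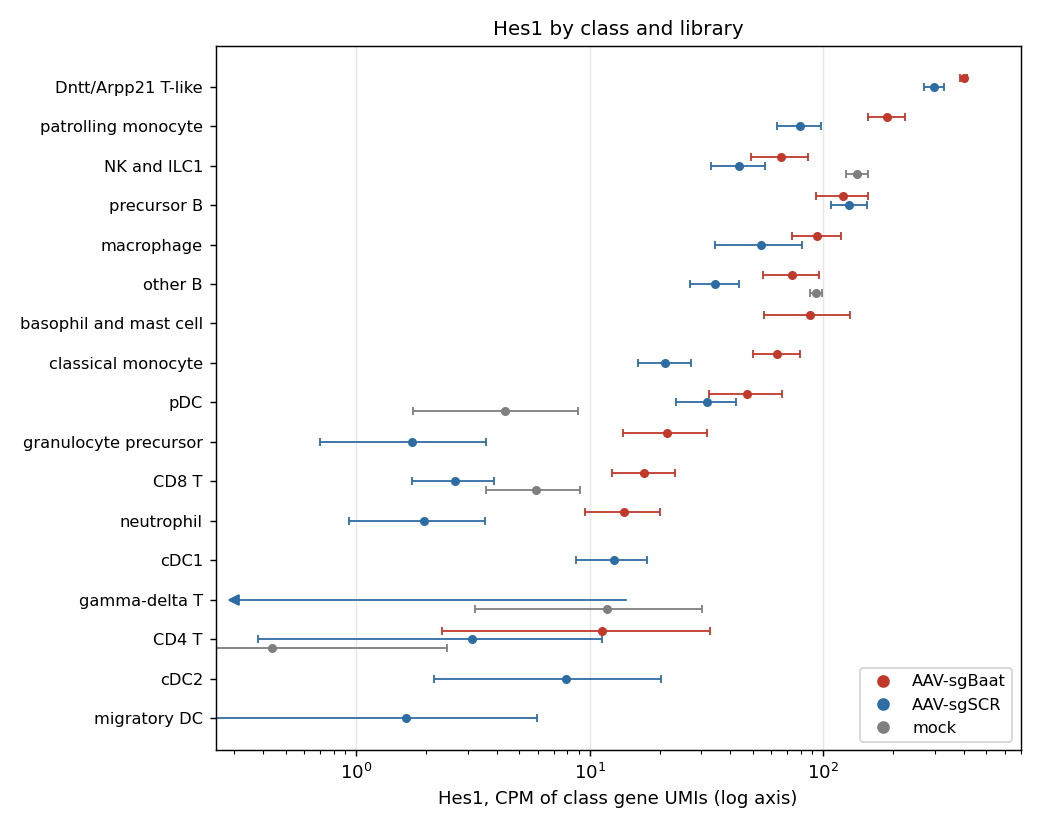
Hes1 level by class in CPM of the class's gene UMIs on a log axis, for classes with at least 50 cells, in AAV-sgBaat (red), AAV-sgSCR (blue) and mock (grey); lines are exact 95% Poisson intervals, some cut off at the left edge, and the arrow marks a count of 0. Dntt/Arpp21 T-like cells are at the top, and the AAV-sgBaat points lie right of the AAV-sgSCR points in all classes with both except precursor B cells.

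Other B cells had Hes1 at 73.5 CPM in AAV-sgBaat, 34.4 in AAV-sgSCR and 93.04 in mock. Notch2 in these cells was at 30.0 CPM [18.8 to 45.4] in AAV-sgBaat against 30.4 [23.3 to 39.0] in AAV-sgSCR, against 60.1 [55.6 to 64.9] in mock. Among B cells with at least 2 UMIs of Ighd or Fcer2a, genes of mature B cells, Notch2 was at 42.1 CPM in AAV-sgBaat, 44.7 in AAV-sgSCR and 61.0 in mock. Such cells were 136 of 327, 229 of 618 and 2500 of 2918 B cells. The intervals of both AAV libraries overlapped that of mock. Precursor B cells had Notch2 at 5.98 CPM in AAV-sgBaat against 2.09 in AAV-sgSCR, on 3 and 2 UMIs.

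Notch2 was high in monocytes, with patrolling monocytes at 52.8 CPM in AAV-sgBaat against 74.1 in AAV-sgSCR and classical monocytes at 48.5 and 57.4, with overlapping intervals between libraries. Neutrophils had 33.5 CPM [26.3 to 42.1] in AAV-sgBaat against 52.1 [46.1 to 58.8] in AAV-sgSCR. Outside the T cells, Notch1 was high in plasmacytoid dendritic cells, at 85.5 CPM in AAV-sgBaat, 108 in AAV-sgSCR and 128 in mock. Neutrophils had 78.3 CPM in AAV-sgBaat against 99.4 in AAV-sgSCR, and 89 basophils and mast cells of AAV-sgBaat had 91.1. Notch3 in plasmacytoid dendritic cells had 5 UMIs in AAV-sgBaat (7.37 CPM), 8 in AAV-sgSCR (5.42 CPM) and 26 in mock (16.1 CPM [10.5 to 23.6]). Basophils and mast cells had 3 Notch3 UMIs in AAV-sgBaat (10.9 CPM). Of the 373 Notch3 UMIs of AAV-sgBaat, 147 lay in Dntt/Arpp21 cells and 193 in mixed-lineage barcodes. Among the other named classes, Heyl was found mainly in precursor B cells, at 7.97 CPM on 4 UMIs in AAV-sgBaat against 16.7 on 16 UMIs in AAV-sgSCR. Of the 103 Heyl UMIs of AAV-sgBaat, 40 lay in Dntt/Arpp21 cells, and most of the rest lay outside the named classes.

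Rbpj was high in type 1 conventional and migratory dendritic cells, and lower in plasmacytoid ones, at 44.2 CPM in AAV-sgBaat, 47.4 in AAV-sgSCR and 60.8 in mock. Type 2 conventional dendritic cells had 182 CPM in AAV-sgBaat, 102 [76.5 to 134] in AAV-sgSCR and 193 in mock. The AAV-sgSCR value lay by the 123 CPM [116 to 130] of CD8 T cells in that library. Type 1 conventional dendritic cells had 183 CPM in AAV-sgBaat, 176 in AAV-sgSCR and 305 in mock, on 24, 175 and 20 cells, and 103 migratory dendritic cells of AAV-sgSCR had 210. Dtx1 was highest in T cell classes and other B cells. CD4 T cells had it at 75.0 CPM in AAV-sgBaat, 47.1 in AAV-sgSCR and 88.1 in mock, gamma-delta T cells at 137, 46.4 and 97.6, and other B cells at 40.9, 25.5 and 35.5. Monocytes, macrophages, granulocytes and dendritic cells held between 0 and 7.29 CPM in classes of at least 20 cells.

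Of the 9122 Hes1 UMIs in AAV-sgBaat barcodes that passed the filter, 3465 lay in Dntt/Arpp21 cells and 4519 in the 2081 mixed-lineage barcodes, which stood at 211 CPM. The 1330 mixed-lineage barcodes of AAV-sgSCR stood at 40.0 CPM and the 356 of mock at 41.9. T cells without a Dntt or Arpp21 UMI that fitted no T cell class had Hes1 at 117 CPM in AAV-sgBaat, on 581 cells, against 1.66 in AAV-sgSCR and 10.5 in mock.

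For 5 members, the genes with the most similar pattern were sought among 11104 genes, as Pearson's r of log2(CPM + 1) over 27 combinations of library and class with at least 100 cells. These points share libraries, and the values are descriptions. The search left out members, genes used to gate classes, and ribosomal, mitochondrial, immunoglobulin, T cell receptor and unnamed genes. Dntt and Arpp21 therefore could not be found. Of the Dntt/Arpp21 cells, only those of AAV-sgBaat were numerous enough to enter. Among the genes searched, those nearest to Hes1 were Cog7 (0.66), Rgl1 (0.65) and Mgme1 (0.64). Notch1 was nearest to Igf1r (0.74), Tmed5 (0.74) and Ndufv3 (0.70). Notch2 was nearest to Fos (0.87), March1 (0.86) and Wdfy2 (0.86). Dtx1 was nearest to Cd2 (0.90), Plcxd2 (0.87) and Gdf11 (0.86). Rbpj was nearest to Rab8b (0.81), Asl (0.79) and Id2 (0.79).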

How the data were processed

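Droplet messenger RNA libraries with antibody tags of the mock, AAV-sgSCR and AAV-sgBaat groups were analysed. The authors deposited unnormalized UMI counts, 1 sparse matrix a library, per the file headers. Reads were counted by the authors with Cell Ranger 6.0.1, per the matrix header, on mm10, per the submitters' processing notes. The antibody tags were read from the same matrices. Of the tags, those for CD90.1 and CD90.2 were used.

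Barcodes entered a class by marker UMIs, after mixed-lineage barcodes had been set aside. T cells needed 2 UMIs among the genes Cd3d, Cd3e, Cd3g, and CD8 T cells in addition 2 of Cd8a and Cd8b1, 2 of 7 mature T cell genes, no Cd4 and no Dntt or Arpp21. No cell was called a doublet in the values reported, since Scrublet's automatic threshold marked 1 barcode each in AAV-sgBaat and AAV-sgSCR and 258 in mock. The mock calls were not applied, so that all libraries were treated alike. Removing the highest scores was an alternative. Counts were summed per library and class. No test was run, since each group has 1 library. Ratios have exact conditional binomial intervals and shares exact Clopper-Pearson intervals at 95%. A sum of 0 was set to 3 counts over the class, and such ratios are bounds. Ratios were computed for classes of at least 50 cells. Thinned shares are exact means over all random draws of 1000 UMIs a cell, a form chosen after seeing that single draws differed. The ratio step was tested on simulated data.

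The 7 members, the gene lists and the gates were chosen with earlier results of these data known, and the splits by tag, by Ccl5 and by genes within a class were chosen after seeing the values. Named genes are the 7 members and, of the other 54 pathway genes, those at least 2-fold apart with at least 20 UMIs in the higher class, up to 12 per comparison, and for likeness the 3 genes with the highest r. Python 3.11.15 was used with numpy 2.4.6, scipy 1.17.1, pandas 2.3.3, scanpy 1.11.5 and matplotlib 3.10.9.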

Additional observations from a re-analysis of the deposited data

Results flagged for a closer look

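For 3 members the log2 ratio of AAV-sgBaat over AAV-sgSCR lay above 0 in some classes and below 0 in others, with intervals that excluded 0 on each side. Those intervals cover counting error only, and the differences between classes were not tested. Notch1 was higher in AAV-sgBaat in patrolling monocytes (0.94) and granulocyte precursors (0.77) and lower in Dntt/Arpp21 T-like cells (-0.21) and neutrophils (-0.34). Dtx1 was higher in CD8 T cells (1.36), in natural killer and type 1 innate lymphoid cells (2.17) and in neutrophils (3.68, on 11 against 2 UMIs) and lower in Dntt/Arpp21 T-like cells (-0.41). Rbpj was higher in CD4 T cells (0.80) and lower in CD8 T cells (-0.44), where 38.6% of cells in AAV-sgBaat and 61.4% in AAV-sgSCR were CD90.1-dominant.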

How the results depend on the processing

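No paired analysis was possible because each group is 1 library. Of the recomputed values of the main results, 71 stayed within the interval or within 1.5 times the count reported and 22 did not. Hes1 in CD8 T cells (AAV-sgBaat over AAV-sgSCR, log2 2.69) was 1.45 with mixed-lineage barcodes kept, and 3.87, a bound against 0 UMIs, in CD90.2-dominant cells alone, a choice made after seeing the data. Hes1 in Dntt/Arpp21 over CD8 T cells of AAV-sgBaat (4.54) was 3.19 with mixed-lineage barcodes kept, 4.05 thinned, 4.07 with a looser CD8 gate and 3.97 as a mean over cells. The AAV-sgSCR ratio (6.81) ranged over 4.24 to 7.20, lowest with mixed-lineage barcodes kept. Hes1 in Dntt/Arpp21 cells (AAV-sgBaat over AAV-sgSCR, 0.42) was -0.14 thinned, 0.67 at 5% mitochondrial UMIs, 0.60 with 1 Dntt or Arpp21 UMI enough and 0.0512 as a mean over cells. The cause was not tested. Thinned values are 1 random draw, whose average over draws is the mean over cells, so they carry draw error. Members at least 2-fold higher in CD8 T cells were 0 thinned, against 2. That draw left 13 Hes1 UMIs, under the minimum of 20, and gave Dtx1 a log2 ratio of 0.63 on 17 against 34 UMIs, where the mean over cells was 1.40. Members lower in Dntt/Arpp21 than in CD8 T cells of AAV-sgBaat were 0 with mixed-lineage barcodes kept, thinned, at 5% mitochondrial UMIs, with 1 UMI enough, with a looser CD8 gate and without cycling cells, since Rbpj lies at the threshold. In AAV-sgSCR, lower members were 1 with mixed-lineage barcodes kept, thinned or without cycling cells, and higher members 2 thinned or without cycling cells. Depth limits Heyl and Notch3 in CD8 T cells, and no value carries an error between animals.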
